A study of Homo sapiens with 12 samples.

Results

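Cytokine receptors, the JAK kinases and STAT transcription factors that carry their signal, and the SOCS and PIAS proteins that restrain it were followed in Huh7, an established line of human hepatocellular carcinoma cells, after exposure to graphene oxide carriers. The genes were matched by symbol and were 45 of the 63677 genes in the count table. They comprised 23 receptor chains, 2 ligands, 4 kinases, 6 STAT genes, 8 genes of the SOCS family, with CISH counted among them, and 2 PIAS genes. The symbols matched 48 identifiers, of which the second identifiers of PIAS3, SOCS7 and IFNGR2 held 0 counts in every sample.

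The sequenced RNA came from 12 samples, 3 in each of 4 groups. Untreated cells received medium only, and the other groups were treated for 6 h. GO cells received graphene oxide, sheets of oxidised carbon that can carry drugs, at 400 µg/mL. GO-Rg3 cells received graphene oxide conjugated with Rg3, a ginsenoside (a saponin of ginseng), at 400 µg/mL. GO-Rg3-DOX cells received the Rg3 conjugate loaded with doxorubicin, a DNA-intercalating chemotherapeutic, at 100 µg/mL. Cells given free doxorubicin were not analysed here, so what the drug and the carrier contributed in GO-Rg3-DOX cells cannot be told apart. Because that carrier was given at a lower dose, it was compared with untreated cells only. The 3 comparisons with untreated cells share the same control samples. The labels do not say whether the samples of a group were separate cultures, and p-values therefore measure only the spread between these samples.

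Most cytokine receptors have no kinase of their own. When a ligand brings receptor chains together, the JAK kinases bound to them phosphorylate STAT proteins, which enter the nucleus and switch on target genes. SOCS genes, including CISH, are among those targets, and their products bind receptors or kinases and damp the same signal. In liver cells the IL-6 family acts through the shared chain gp130 and STAT3 to induce acute phase proteins, growth hormone acts through JAK2 and STAT5, and interferons act through receptor pairs of their own. The IL-1 and IL-17 receptors signal through adaptor proteins to NF-kB instead.

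Counts per sample summed to between 27802871 and 38877420. Levels are given as counts per 1000000 counts (CPM) after trimmed mean of M values (TMM) scaling, which sets the bulk of genes to no change. Mitochondrial genes took 5.31 to 6.28% of the counts in untreated cells and 6.89 to 7.42% in GO-Rg3 cells, against 12.1 to 24.1% in GO cells and 12.8 to 19.4% in GO-Rg3-DOX cells. GO replicate 1 and GO-Rg3-DOX replicate 1 had the highest shares and stood apart from the other samples of their groups, so the counts below were repeated without them. All 8 hepatocyte markers averaged at least 1 CPM, and their summed level was 23140 to 23270 CPM in untreated, 14470 to 17530 in GO, 17880 to 21440 in GO-Rg3 and 30220 to 35480 in GO-Rg3-DOX cells. AFP gave the largest part, with means of 12290 CPM in untreated and 5836 CPM in GO cells. The markers did not move as a set. With GO the means of ALB, AFP, TTR and TF were lower, and those of APOA1, APOB, SERPINA1 and HNF4A higher. With GO-Rg3-DOX only HNF4A was lower, at 180 CPM against 363 CPM in untreated cells. Of 10 leukocyte markers only CD14, ITGAM and LYZ averaged at least 1 CPM, and MS4A1 was at 0. The summed level of those 10 was 152 to 157 CPM in untreated, 120 to 137 in GO, 115 to 135 in GO-Rg3 and 120 to 166 in GO-Rg3-DOX cells. LYZ gave nearly all of it, with a mean of 150.1 CPM in untreated cells, whereas CD14 went from a mean of 1.25 to 3.28 CPM and ITGAM from 1.90 to 3.80 CPM between untreated and GO-Rg3-DOX cells. Of 6 markers of stroma and endothelium COL3A1 and PDGFRB averaged at least 1 CPM, and PECAM1 was at 0. Their summed level was 2.99 to 4.03 CPM in untreated, 2.59 to 3.53 in GO, 3.09 to 4.24 in GO-Rg3 and 9.19 to 11.6 in GO-Rg3-DOX cells. The part of these levels in the results was not tested. In RNA from whole cultures, fewer cells of a kind and less RNA per cell cannot be told apart.

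In untreated cells the 45 genes spanned a wide range of levels. To compare genes with each other, CPM were divided by the length of the canonical transcript in kilobases. The interferon gamma receptor chain IFNGR1 was the highest at 43.4 ± 0.592 CPM per kb (mean ± SD, n = 3), followed by IL17RB, a receptor chain for IL-25, at 36.9 ± 1.204 and by JAK1, the kinase shared by most of these receptors, at 34.9 ± 0.358. Among the kinases TYK2 stood at 16.2 ± 0.814 CPM per kb and JAK2 at 0.706 ± 0.0431, and JAK3, a kinase of lymphoid cells, had 0 counts. STAT6, the factor of IL-4 and IL-13 signalling, reached 21.6 ± 0.639 CPM per kb and STAT3 20.1 ± 0.172. STAT2 followed at 9.24 ± 0.827, STAT5B at 6.72 ± 0.209, STAT5A at 1.83 ± 0.0480 and STAT4 at 0.410 ± 0.0503. Within the SOCS family SOCS4 was highest at 6.68 ± 0.0461 CPM per kb, while CISH was at 1.80 ± 0.136 and SOCS2 at 0.211 ± 0.0397. The gp130 gene IL6ST, at 11.6 ± 0.630 CPM per kb, exceeded its partner chains OSMR (9.09 ± 0.209), LIFR (4.72 ± 0.257) and IL6R (2.21 ± 0.0815). The neighbours OSMR and CSF1 (9.04 ± 0.408) differed by less than their SD. At the low end IL15RA had 18 counts over all 12 samples, with at most 7 in any of them, and JAK3 had 16. These genes did not reach 10 counts in 3 samples and were not tested, which left 43 genes. Exons of IL1R1, IL6ST, IL7, IL11RA, IL15RA, IL17RB, IFNGR2, LIFR, OSMR, EPOR, JAK1, STAT4, STAT5A, STAT5B, STAT6, SOCS2, SOCS5, CISH, PIAS1 and PIAS3 overlap those of another gene. IFNAR2 and IL10RB share a readthrough transcript, and IFNAR2 also overlaps IL10RB-DT on the other strand. Because the strand setting of the counting is not given in the sources used here, the values of these genes are uncertain to that extent. IL11RA, IL15RA, EPOR, JAK1 and SOCS5 overlap a gene on the same strand, and IFNAR2 and IL10RB overlap their readthrough gene on the same strand. No strand setting separates such overlaps.

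**Figure D1:**
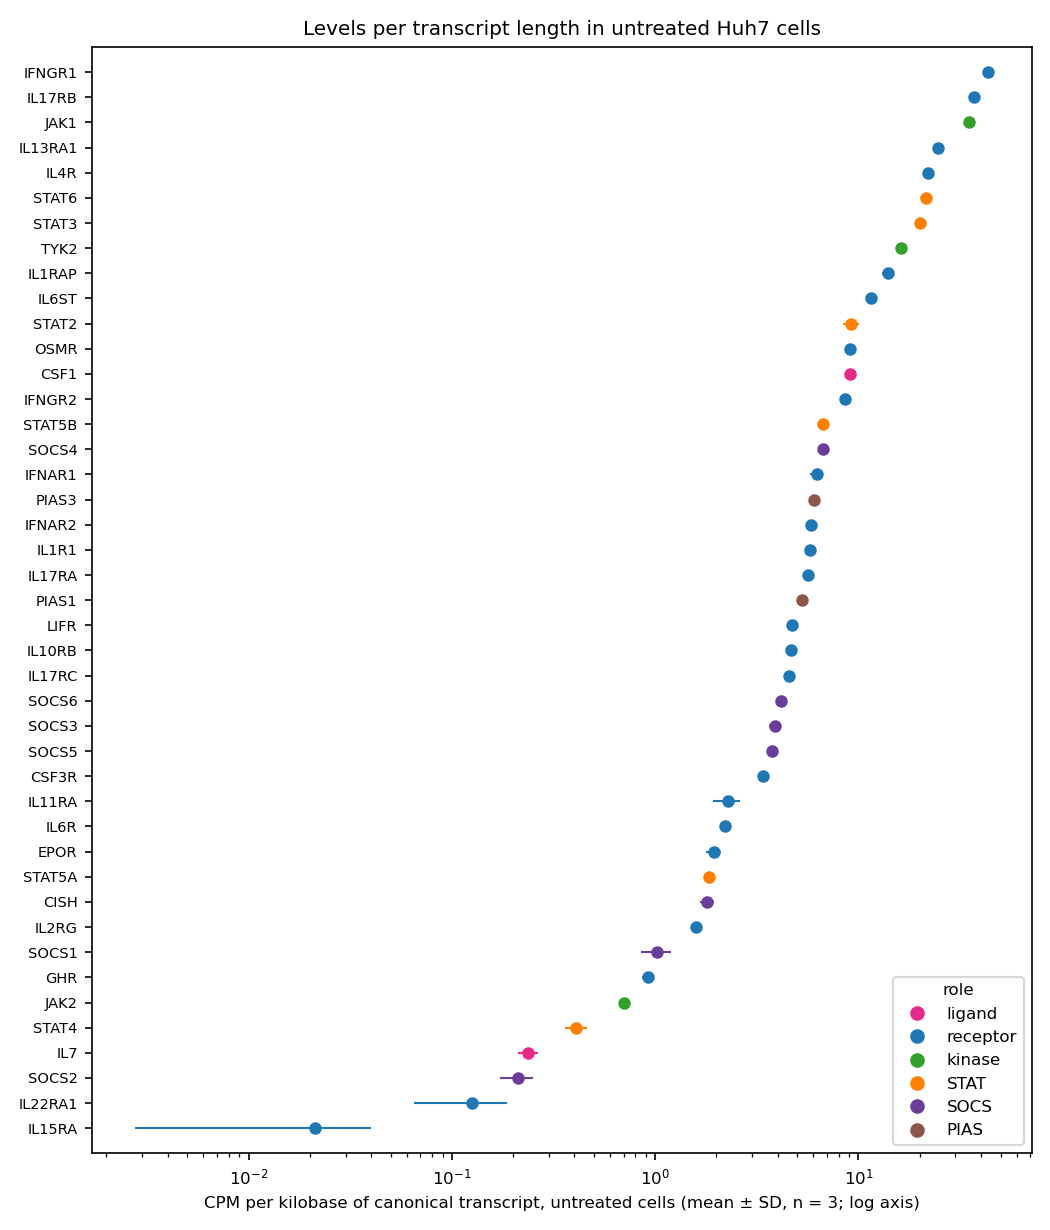
Level of 43 genes in untreated Huh7 cells, in CPM per kilobase of canonical transcript on a log axis (points: mean, bars: SD, n = 3), coloured by role. IFNGR1, IL17RB and JAK1 lie at the top, and IL22RA1 and IL15RA at the bottom; JAK3 (0 counts) and SOCS7 (no transcript length) are not drawn.

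The first question was what the bare carrier did. After GO, 14 of the 43 genes rose and 4 fell at an adjusted p below 0.01 (edgeR quasi-likelihood test, Benjamini-Hochberg adjustment over all 17092 genes tested), whereas 12.1% of all genes tested rose and 15.4% fell. Of these, IL2RG, IL7, IL17RC and STAT5A rose and IFNGR1 fell by more than 1 on the log2 scale; 3.84% of all genes rose and 2.62% fell that far. The median log2 fold change was 0.16 over the 43 genes and 0.01 over all genes. By role, both ligands rose, 8 receptors rose and 2 fell, 1 of 3 kinases and 2 of 6 STAT genes rose, 1 SOCS gene rose and 1 fell, and 1 of 2 PIAS genes fell. The log2 fold changes of the 25 genes that did not pass lay between -0.94 and 0.82.

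Both ligand genes were higher in every GO sample than in any untreated sample. CSF1, which encodes the growth factor of macrophages, measured 37.9, 35.8 and 34.6 CPM in untreated replicates 1 to 3 and 74.9, 62.0 and 69.1 CPM in the GO samples (log2 fold change 0.93 ± 0.13, SE; adjusted p = 9.3e-05). IL7, a growth factor of lymphocytes, was near the limit of detection with 0.448 to 0.542 CPM in untreated cells and 0.627, 1.15 and 1.19 CPM in GO cells. Its log2 fold change was 1.06 ± 0.29 (adjusted p = 0.0096), and without any one of the samples other than GO replicate 1 it missed the test, with adjusted p between 0.022 and 0.045.

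Receptors of the IL-6 family separated by chain. IL6R, the chain that binds IL-6, measured 12.8, 12.3 and 13.2 CPM in untreated cells and 22.8, 25.7 and 27.1 CPM in GO cells (log2 fold change 0.98 ± 0.12, adjusted p = 2.2e-05). OSMR, the oncostatin M receptor chain, measured 51.5, 49.4 and 49.8 CPM and rose to 81.7, 99.2 and 93.9 CPM (0.87 ± 0.10, adjusted p = 1.2e-05). In neither gene did the groups overlap. The common chain IL6ST did not pass the test: it measured 110, 105 and 98.8 CPM in untreated cells and 53.9, 92.7 and 82.9 CPM in GO cells, with the lowest value in GO replicate 1. Its groups did not overlap either, and its log2 fold change was -0.45 ± 0.15 (adjusted p = 0.028). IL6ST passed without GO replicate 2 (adjusted p = 0.0069), while the GC offset used below gave a log2 fold change of -0.09. The level of LIFR, which pairs with gp130 for LIF, was 49.8 ± 2.72 CPM in untreated and 45.0 ± 10.4 CPM in GO cells, and the groups overlapped.

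IL2RG, the common gamma chain of the IL-2, IL-4 and IL-7 receptors (GRCh37 chromosome X, 70327254 to 70331958), had the largest log2 fold change of the 14, at 1.36 ± 0.17 (adjusted p = 2.7e-05). It measured 2.43, 2.37 and 2.24 CPM in untreated and 6.93, 5.14 and 6.11 CPM in GO cells, so the lowest GO sample was above every untreated one. IL4R, the chain that binds IL-4, went from 79.6 ± 3.16 to 110.9 ± 5.12 CPM (log2 fold change 0.48 ± 0.10, adjusted p = 0.0017) and missed the test without untreated replicate 2 (adjusted p = 0.012). The 3 IL-17 receptor chains moved apart. IL17RC and IL17RA, which form the receptor for IL-17A, rose by log2 fold changes of 1.03 ± 0.15 and 0.67 ± 0.10, and IL17RB fell by 0.53 on the log2 scale, from 74.4 ± 2.43 to 51.5 ± 1.18 CPM (adjusted p = 9.1e-04). In IL17RC the untreated samples were at 11.1, 10.9 and 10.9 CPM and the GO samples at 24.95, 19.8 and 22.2 CPM.

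CSF3R, the receptor of granulocyte colony-stimulating factor, measured 10.3, 9.85 and 10.7 CPM in untreated and 20.3, 18.8 and 19.6 CPM in GO cells (log2 fold change 0.93 ± 0.12, adjusted p = 5.3e-05). EPOR, the erythropoietin receptor, rose from 4.69 ± 0.387 to 7.07 ± 0.601 CPM (0.60 ± 0.13, adjusted p = 0.0019), a call lost without untreated replicate 1 (adjusted p = 0.011), untreated replicate 3 (0.015) or GO replicate 3 (0.011). The opposite change was seen in IFNGR1, the ligand-binding chain of the interferon gamma receptor (GRCh37 chromosome 6, 137518620 to 137540586). IFNGR1 measured 91.3, 88.9 and 90.0 CPM in untreated cells and 30.0, 39.2 and 33.4 CPM in GO cells, a log2 fold change of -1.39 ± 0.17 (adjusted p = 2.4e-05) with a wide gap between the groups. Its partner chain IFNGR2 measured 14.5 ± 0.609 CPM without and 17.1 ± 1.89 CPM with GO, and the type I interferon receptor chains IFNAR1 and IFNAR2 did not pass either. IFNAR1 did pass in DESeq2 (adjusted p = 0.0064).

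Downstream of the receptors, STAT5A, a factor activated by growth hormone and many cytokines, rose by a log2 fold change of 1.07 ± 0.14 (adjusted p = 3.7e-05). Its samples were at 6.96, 7.07 and 6.71 CPM in untreated and at 17.0, 13.1 and 13.4 CPM in GO cells, the highest in GO replicate 1. STAT5B, its close relative on the neighbouring stretch of chromosome 17, measured 34.1 ± 1.06 CPM in untreated and 38.1 ± 2.01 CPM in GO cells and did not pass. STAT6 rose from 85.4 ± 2.53 to 114 ± 6.07 CPM (log2 fold change 0.42 ± 0.08, adjusted p = 0.0011). STAT3 did not pass, with 98.0, 99.6 and 99.2 CPM in untreated and 89.1, 104.5 and 103.2 CPM in GO cells. TYK2, the kinase of interferon and IL-12 receptors, rose from 68.6 ± 3.46 to 100.5 ± 8.51 CPM (0.55 ± 0.14, adjusted p = 0.0067), but passed in only 1 of the 6 fits that each left out a sample, the one without GO replicate 2 (adjusted p in the others 0.016 to 0.030).

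Of the negative regulators, SOCS3, the feedback inhibitor of gp130 signalling, measured 11.2, 9.81 and 10.8 CPM in untreated and 16.8, 18.1 and 19.8 CPM in GO cells (log2 fold change 0.78 ± 0.13, adjusted p = 3.1e-04). CISH, the STAT5-induced inhibitor, measured 3.64 ± 0.275 CPM without and 3.64 ± 0.141 CPM with GO. SOCS5 fell from 18.0 ± 0.517 to 11.9 ± 1.82 CPM (log2 fold change -0.59 ± 0.14, adjusted p = 0.0036) and kept the call in only 1 of 6 such fits, that without GO replicate 2 (0.010 to 0.016 in the others). PIAS1, a SUMO ligase that restrains STAT proteins, fell from 42.1 ± 0.849 to 26.7 ± 4.73 CPM (log2 fold change -0.66 ± 0.15, adjusted p = 0.0032), and the call was lost without untreated replicate 1 (0.014), 2 (0.011) or 3 (0.012). Without GO replicate 1 the counts were again 14 higher and 4 lower but not all of the same genes: TYK2 (adjusted p = 0.019) and SOCS5 (0.010) lost the call, while PIAS3 (0.0017) and SOCS2 (0.0069, log2 fold change -1.71) gained it. Without GO replicate 2 they were 13 and 7, and without any single untreated replicate 11 and 2.

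**Figure D2:**
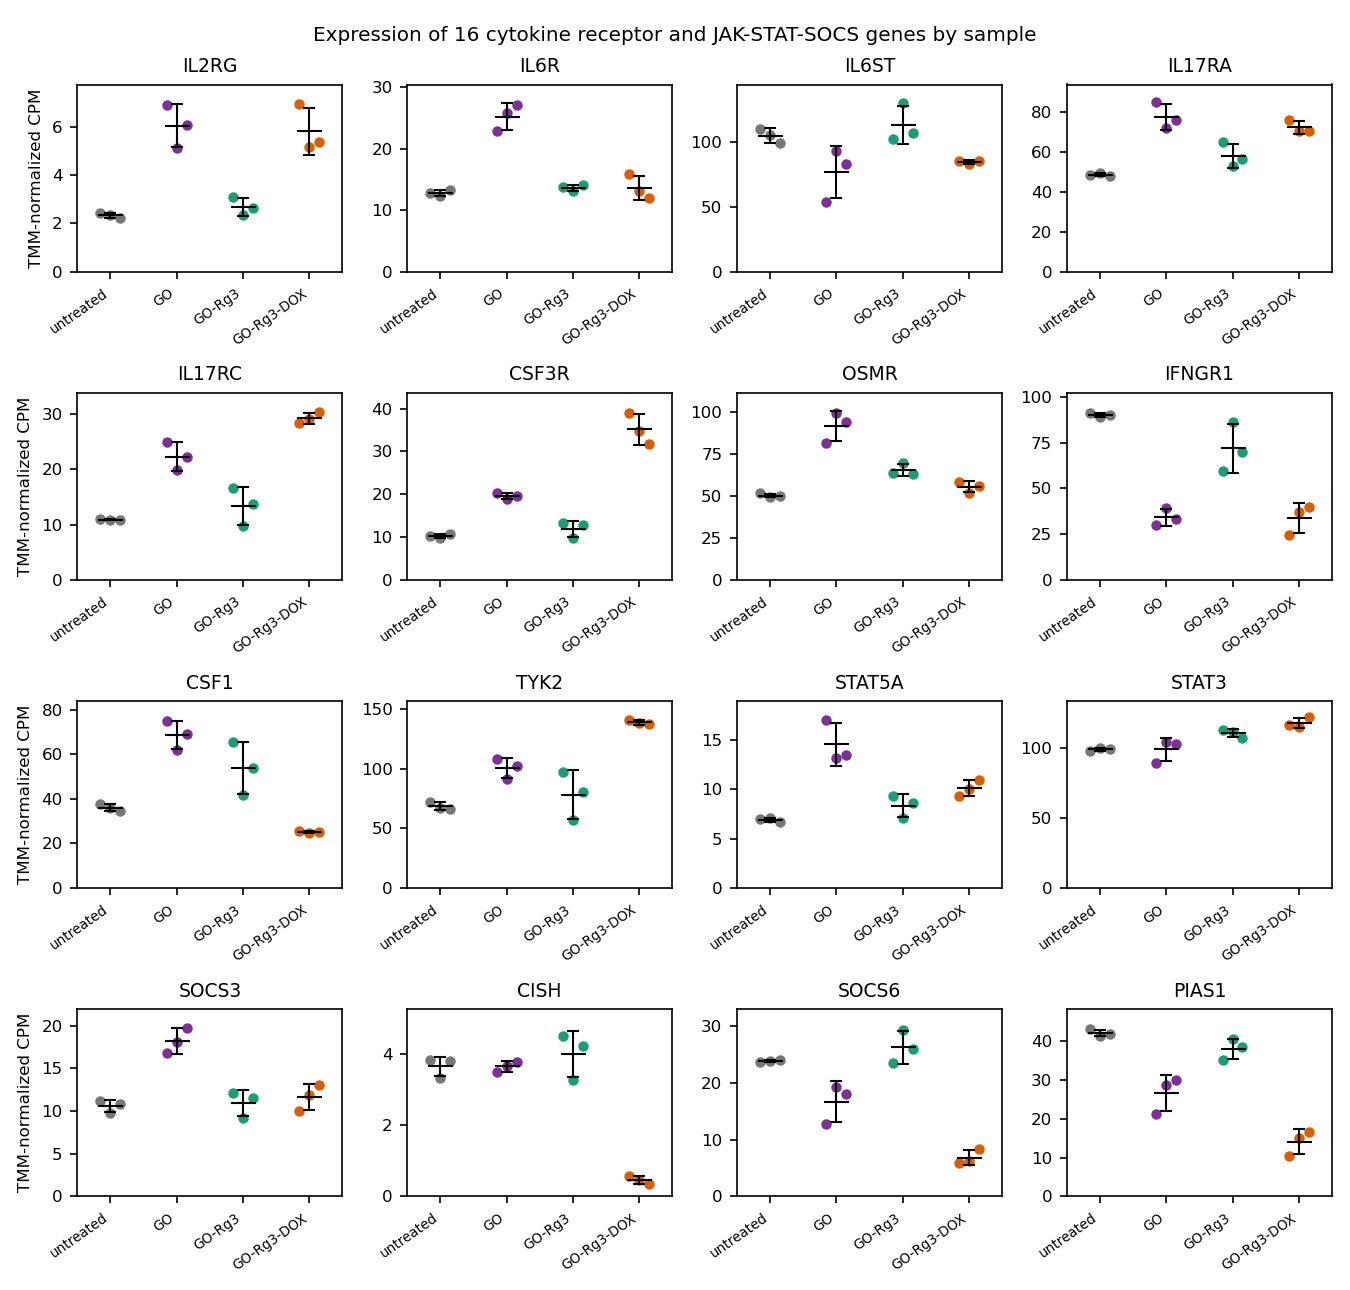
TMM-normalized CPM of 16 genes in each sample, by group (points: samples, long bars: mean, whiskers: SD, n = 3; each axis starts at 0). IFNGR1 is low in GO and GO-Rg3-DOX cells, IL6R and SOCS3 are high in GO cells, and CISH is low in GO-Rg3-DOX cells.

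Scaling and base composition moved with the GO result. With library totals in place of TMM the median over all genes was -0.11 and the split was 9 higher and 4 lower, with IL7, IL4R, EPOR, STAT6 and TYK2 no longer past the test (adjusted p 0.028 to 0.045). The log2 fold change followed the GC content of the transcript, with a Spearman coefficient across genes of 0.45 over 16310 genes and 0.64 over the 42 genes of the pathway with a GC value, given as a description. The genes that rose had a median GC content of 57.2% and those that fell 39.8%, against 48.4% over all genes. With a GC offset in the fit 12 genes rose and 3 fell, IL4R, EPOR, STAT6, TYK2 and SOCS5 missed the test (adjusted p 0.012 to 0.032), and IFNAR1 (log2 fold change 0.56, adjusted p = 2.1e-04) and IL1RAP, the accessory chain of the IL-1 receptor (0.51, adjusted p = 0.0025), passed. Genes that kept the call changed in size. Among them only IL7 and OSMR grew with the offset, from 1.06 to 1.38 and from 0.87 to 0.98 on the log2 scale. The log2 fold change was 1.31 for IL2RG and -1.10 for IFNGR1 with the offset, and went from 1.03 to 0.62 for IL17RC, from 0.93 to 0.62 for CSF3R, from 0.93 to 0.64 for CSF1, from 0.78 to 0.49 for SOCS3, from 1.07 to 0.85 for STAT5A and from -0.66 to -0.39 for PIAS1.

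GO-Rg3 at the same dose was then set against untreated cells. None of the 43 genes passed the test in edgeR, where 0.0585% of all genes tested rose and 0.105% fell, and 0.0117% rose and 0.0468% fell by more than 1 on the log2 scale. At an unadjusted p under 0.05 there were 6 genes of the 43, against 13.4% of all genes. DESeq2 called 2 higher, CSF1 and OSMR (adjusted p = 0.0034 each), and 0 lower, where it called 0.563% higher and 2.03% lower of the 12782 genes to which it gave an adjusted p. Both genes also passed with the GC offset (adjusted p = 0.0012 and 0.0051). The log2 fold changes of all 43 genes lay between -0.55 and 0.58. CSF1 came nearest, with 65.4, 41.9 and 54.0 CPM in GO-Rg3 cells against 34.6 to 37.9 CPM in untreated cells (log2 fold change 0.58 ± 0.13, adjusted p = 0.045). It passed without GO-Rg3 replicate 2 (adjusted p = 0.0072). OSMR measured 63.7, 69.5 and 63.0 CPM against 49.4 to 51.5 CPM (0.38 ± 0.10, adjusted p = 0.061), and these samples did not overlap. IFNGR1 measured 59.5, 86.3 and 69.7 CPM, below the untreated range of 88.9 to 91.3 CPM. Its log2 fold change of -0.33 ± 0.16 did not pass (adjusted p = 0.41).

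The direct comparison of GO-Rg3 with GO, both at 400 µg/mL, set the Rg3 conjugate against the bare carrier. By the study's own measurements conjugation also changed flake size, thickness and surface charge. What Rg3 itself contributed therefore cannot be told apart from those changes. In GO-Rg3 cells 3 genes were higher and 10 lower, where 7.33% of all genes tested were higher and 6.25% lower. Only IFNGR1 was higher and only IL2RG lower by more than 1 on the log2 scale, against 0.702% and 2.07% of all genes. Of the receptors IL6R, IL17RA, IL17RC, CSF3R, OSMR and EPOR were also lower, as were STAT5A, STAT6 and SOCS3, and the SOCS genes SOCS4 and SOCS6 were higher. The GO samples are shared with the comparison of GO with untreated cells and the GO-Rg3 samples with that of GO-Rg3, so the directions of these genes in the 3 comparisons are not independent.

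IL2RG measured 3.11, 2.35 and 2.63 CPM in GO-Rg3 cells against 5.14 to 6.93 CPM in GO cells (log2 fold change -1.16 ± 0.16, adjusted p = 2.2e-04). IL6R was at 13.7, 13.1 and 14.1 CPM against 22.8 to 27.1 CPM (-0.89 ± 0.12, adjusted p = 1.1e-04). Both genes were lower in every GO-Rg3 sample than in any GO sample. STAT5A stood at 9.35, 7.04 and 8.57 CPM against 13.1 to 17.0 CPM (-0.80 ± 0.13, adjusted p = 7.6e-04). SOCS3 measured 12.1, 9.19 and 11.5 CPM against 16.8 to 19.8 CPM (-0.73 ± 0.13, adjusted p = 0.0012). The erythropoietin and G-CSF receptor genes EPOR and CSF3R had log2 fold changes of -0.75 ± 0.13 and -0.71 ± 0.12. IFNGR1 was higher in GO-Rg3 cells, at 59.5 to 86.3 CPM against 30.0 to 39.2 CPM (1.07 ± 0.17, adjusted p = 4.3e-04). CSF1 did not pass here, with 41.9 to 65.4 CPM in GO-Rg3 and 62.0 to 74.9 CPM in GO cells (-0.35 ± 0.13, adjusted p = 0.059), except without GO-Rg3 replicate 1 (0.0054).

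The smaller differences between GO-Rg3 and GO depended on single samples, and some larger ones on which samples were fitted together. IL17RC (log2 fold change -0.74 ± 0.15), OSMR (-0.49 ± 0.09) and STAT6 (-0.42 ± 0.08) missed the test without GO replicate 3 or GO-Rg3 replicate 3, with adjusted p between 0.010 and 0.015. IL17RA (-0.42 ± 0.10) and SOCS6 (0.65 ± 0.15) missed it without GO replicate 1, GO replicate 3, GO-Rg3 replicate 2 or GO-Rg3 replicate 3, and SOCS4 (0.56 ± 0.13) without any of these but GO replicate 3, with adjusted p between 0.012 and 0.032. The counts were 2 higher and 11 lower without GO replicate 1, 5 and 10 without GO replicate 2, and 2 and 6 without GO replicate 3. Without GO-Rg3 replicates 1, 2 and 3 in turn they were 3 and 13, 1 and 9, and 1 and 6. With library totals, where the median of all genes was 0.12, IFNGR1 alone was higher and the 4 genes lower were IL2RG, IL6R, STAT5A and CSF3R. With the 6 compared samples fitted alone 10 calls were lost. Among them were STAT5A, SOCS3, EPOR and CSF3R (adjusted p 0.014 to 0.016), and only IFNGR1, IL2RG and IL6R still passed. The GC offset gave 2 higher and 10 lower, with IL17RA, STAT6 and SOCS4 missing the test (adjusted p 0.015 to 0.025) and IL7 and IL1RAP passing as lower (0.0013 and 0.0095). Across genes the Spearman coefficient of the log2 fold change with GC content was -0.45 over 16310 genes and -0.63 over the 42.

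GO-Rg3-DOX was set against untreated cells to see the drug-loaded carrier. Here 11 of the 43 genes rose and 15 fell, where 25.5% of all genes tested rose and 30.5% fell. By more than 1 on the log2 scale, 6 rose (IL2RG, IL7, IL11RA, IL17RC, CSF3R and TYK2) and 10 fell (IL1R1, IFNAR2, IFNGR1, JAK2, SOCS1, SOCS4, SOCS5, SOCS6, CISH and PIAS1), against 12.6% and 18.2% of all genes. The roles differed in their counts: 8 receptors rose and 6 fell, 6 of 8 SOCS genes fell, 1 kinase rose and 1 fell, 1 of 6 STAT genes rose, 1 of 2 PIAS genes fell, and of the ligands IL7 rose and CSF1 fell. The median log2 fold change was -0.08 over the 43 genes and -1.19 over the 8 SOCS genes, against -0.06 over all genes.

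CISH (GRCh37 chromosome 3, 50643920 to 50649205) fell furthest of all 43 genes. It measured 3.81, 3.33 and 3.79 CPM in untreated cells and 0.577, 0.467 and 0.343 CPM in GO-Rg3-DOX cells, a log2 fold change of -2.98 ± 0.21 (adjusted p = 1.4e-08). The lowest untreated sample stood far above the highest treated one, and GO and GO-Rg3 cells, at 3.49 to 3.76 and 3.25 to 4.49 CPM, were near the untreated level. The gene its exons overlap is MAPKAPK3, on the other strand.

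CISH is a textbook STAT5 target, and its promoter is shown because the gene changed most and because the letters of the STAT recognition element recur in it. The 250 bases before the RefSeq start (GRCh38.p14, chr3:50611775-50612024, minus strand) read, 5′ to 3′, with each match to TTCNNNGAA in capitals:
CISH: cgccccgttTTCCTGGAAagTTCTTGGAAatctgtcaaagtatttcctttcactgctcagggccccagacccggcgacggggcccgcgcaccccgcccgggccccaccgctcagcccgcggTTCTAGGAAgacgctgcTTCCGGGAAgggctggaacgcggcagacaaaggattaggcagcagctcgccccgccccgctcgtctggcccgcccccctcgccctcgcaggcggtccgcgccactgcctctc
The 4 matches begin at -241, -230, -129 and -112 from the start. The motif is its own reverse complement, so a match counts on both strands, and matches could overlap. Windows of 300 bases, from 250 before to 50 after a start, were listed for 38 of the 45 genes. A match was present in 7 of their 66 windows (10.6%), from 6 genes, and in 2689 of 35116 windows of all genes (7.66%). At least 4 matches were found in 7 of all windows (0.0199%). The 2 windows of SOCS3 held 0. A match describes letters and does not show that a STAT protein binds there.

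SOCS4, SOCS5, SOCS6 and SOCS7 fell from higher levels than CISH. SOCS6 measured 23.6, 23.8 and 23.9 CPM in untreated and 5.81, 6.25 and 8.27 CPM in GO-Rg3-DOX cells (log2 fold change -1.81 ± 0.16, adjusted p = 1.7e-07). SOCS4 went from 46.1 ± 0.318 to 17.9 ± 1.38 CPM (-1.36 ± 0.14) and SOCS5 from 18.0 ± 0.517 to 7.15 ± 1.34 CPM (-1.33 ± 0.14). SOCS7 went from 6.82 ± 0.345 to 3.64 ± 0.438 CPM (-0.91 ± 0.15). These genes encode SOCS proteins linked more to receptor tyrosine kinases than to cytokine receptors, and in none of them did the groups overlap. The same held for 35 of the 43 genes in this comparison, 29 with GO, and 12 with GO-Rg3, where none passed. The share over all genes was not counted, so these counts do not set the 43 genes apart from other genes. SOCS1, the strongest inhibitor of interferon signalling in the family, was scarce, at 1.27, 1.06 and 1.48 CPM in untreated and 0.536, 0.539 and 0.763 CPM in treated cells (-1.06 ± 0.27, adjusted p = 0.0029). Its call was lost without untreated replicate 3 (adjusted p = 0.017), GO-Rg3-DOX replicate 1 (0.015) or GO-Rg3-DOX replicate 2 (0.018). SOCS3 did not pass, with 9.81 to 11.2 CPM in untreated and 10.1, 11.9 and 13.0 CPM in treated cells, and neither did SOCS2. The count of 6 SOCS genes lower was the same with RLE scaling, with library totals and with the GC offset, and was 5 without GO-Rg3-DOX replicate 1. PIAS1 fell from 42.1 ± 0.849 CPM to 10.4, 14.99 and 16.7 CPM (-1.58 ± 0.16, adjusted p = 4.7e-07), and PIAS3 did not pass.

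Among the kinases JAK2, which serves the growth hormone and erythropoietin receptors, fell from 4.76, 5.31 and 4.81 CPM to 2.02, 1.76 and 1.56 CPM (log2 fold change -1.48 ± 0.26, adjusted p = 1.3e-04). TYK2 rose from 72.5, 67.2 and 66.0 CPM to 141, 138 and 137 CPM (1.02 ± 0.14, adjusted p = 1.7e-05). Neither gene had overlapping groups. JAK1, the most abundant, measured 178 ± 1.82 CPM in untreated and 202 ± 31.4 CPM in treated cells and did not pass. JAK3 was at 0.206, 0.252 and 0.114 CPM in GO-Rg3-DOX cells and at 0 in the untreated and GO-Rg3 samples, too few counts for a test. STAT5A rose from 6.91 ± 0.181 to 10.1 ± 0.797 CPM (0.55 ± 0.14, adjusted p = 0.0024), a call lost without untreated replicate 3 (0.012) or GO-Rg3-DOX replicate 3 (0.011). STAT3 was at 116, 115 and 122 CPM against 98.0 to 99.6 CPM. These groups did not overlap, and STAT3 did not pass in edgeR (log2 fold change 0.25 ± 0.09, adjusted p = 0.017) but did in DESeq2 (3.8e-04), with RLE scaling (0.0050) and with the GC offset (0.0020).

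The receptors that rose were led by CSF3R (GRCh37 chromosome 1, 36931644 to 36948879). It measured 10.3, 9.85 and 10.7 CPM in untreated and 39.02, 34.7 and 31.8 CPM in GO-Rg3-DOX cells (log2 fold change 1.78 ± 0.12, adjusted p = 1.1e-08). IL17RC reached 28.4, 29.1 and 30.4 CPM from 10.9 to 11.1 CPM (1.42 ± 0.15, adjusted p = 1.0e-06). IL2RG was at 6.96, 5.18 and 5.38 CPM against 2.24 to 2.43 CPM (1.31 ± 0.17, adjusted p = 5.7e-06). In each of these genes every treated sample was above every untreated one. IL11RA, the chain that binds IL-11, rose from 3.91 ± 0.582 to 9.63 ± 1.68 CPM (1.30 ± 0.17, adjusted p = 6.7e-06). Its exons overlap those of CCL27 on the other strand and of another gene on the same strand. IL13RA1, which pairs with IL4R in liver cells, rose from 98.7 ± 0.0521 to 165 ± 10.9 CPM (0.74 ± 0.09), while IL4R itself fell from 79.6 ± 3.16 to 51.7 ± 3.12 CPM (-0.62 ± 0.10, adjusted p = 7.4e-05). Smaller rises were measured for EPOR (0.59 ± 0.13) and IL17RA (0.57 ± 0.10). IL10RB, a chain of the IL-10 and interferon lambda receptors, was named after its values were seen because its direction depended on the scaling. It went from 9.02 ± 0.420 to 11.9 ± 0.371 CPM (0.40 ± 0.12, adjusted p = 0.0090), missed the test without any one sample (adjusted p 0.013 to 0.037) and had a log2 fold change of -0.02 with library totals.

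The receptors that fell included the chains for IL-1 and the interferons. IL1R1, the signalling receptor of IL-1, measured 29.1, 30.4 and 30.3 CPM in untreated and 9.43, 9.88 and 9.88 CPM in GO-Rg3-DOX cells (log2 fold change -1.62 ± 0.12, adjusted p = 2.9e-08), while its accessory chain IL1RAP, at 66.3 ± 4.39 and 62.6 ± 9.74 CPM, did not pass. IFNGR1, at 88.9 to 91.3 CPM in untreated cells, fell to 24.7, 37.2 and 39.6 CPM (-1.41 ± 0.17, adjusted p = 2.6e-06), and its partner IFNGR2 from 14.5 ± 0.609 to 9.24 ± 0.802 CPM (-0.65 ± 0.11). Of the type I interferon receptor, the IFNAR2 chain fell from 23.8 ± 0.655 to 10.9 ± 1.10 CPM (-1.13 ± 0.11, adjusted p = 3.2e-07), whereas IFNAR1, at 37.8 ± 2.67 and 32.7 ± 3.61 CPM, did not pass. LIFR fell from 49.8 ± 2.72 to 28.2 ± 0.471 CPM (-0.82 ± 0.14, adjusted p = 1.3e-04), but with the GC offset its log2 fold change was -0.19 (adjusted p = 0.059). IL6R, at 15.8, 13.1 and 11.97 CPM, and OSMR, at 58.3, 51.9 and 55.7 CPM, did not pass.

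Of the ligands, CSF1 measured 25.8, 24.6 and 25.1 CPM in GO-Rg3-DOX cells, below every untreated sample (log2 fold change -0.52 ± 0.13, adjusted p = 0.0031), and missed the test without untreated replicate 1 (adjusted p = 0.014) or without GO-Rg3-DOX replicate 1 (0.011), 2 (0.018) or 3 (0.014). IL7 was at 0.824, 1.19 and 1.33 CPM (1.21 ± 0.30, adjusted p = 0.0023) and missed it without untreated replicate 1 (0.010) or GO-Rg3-DOX replicate 3 (0.013). The gene overlaps an exon of ZC2HC1A on the other strand.

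**Figure D3:**
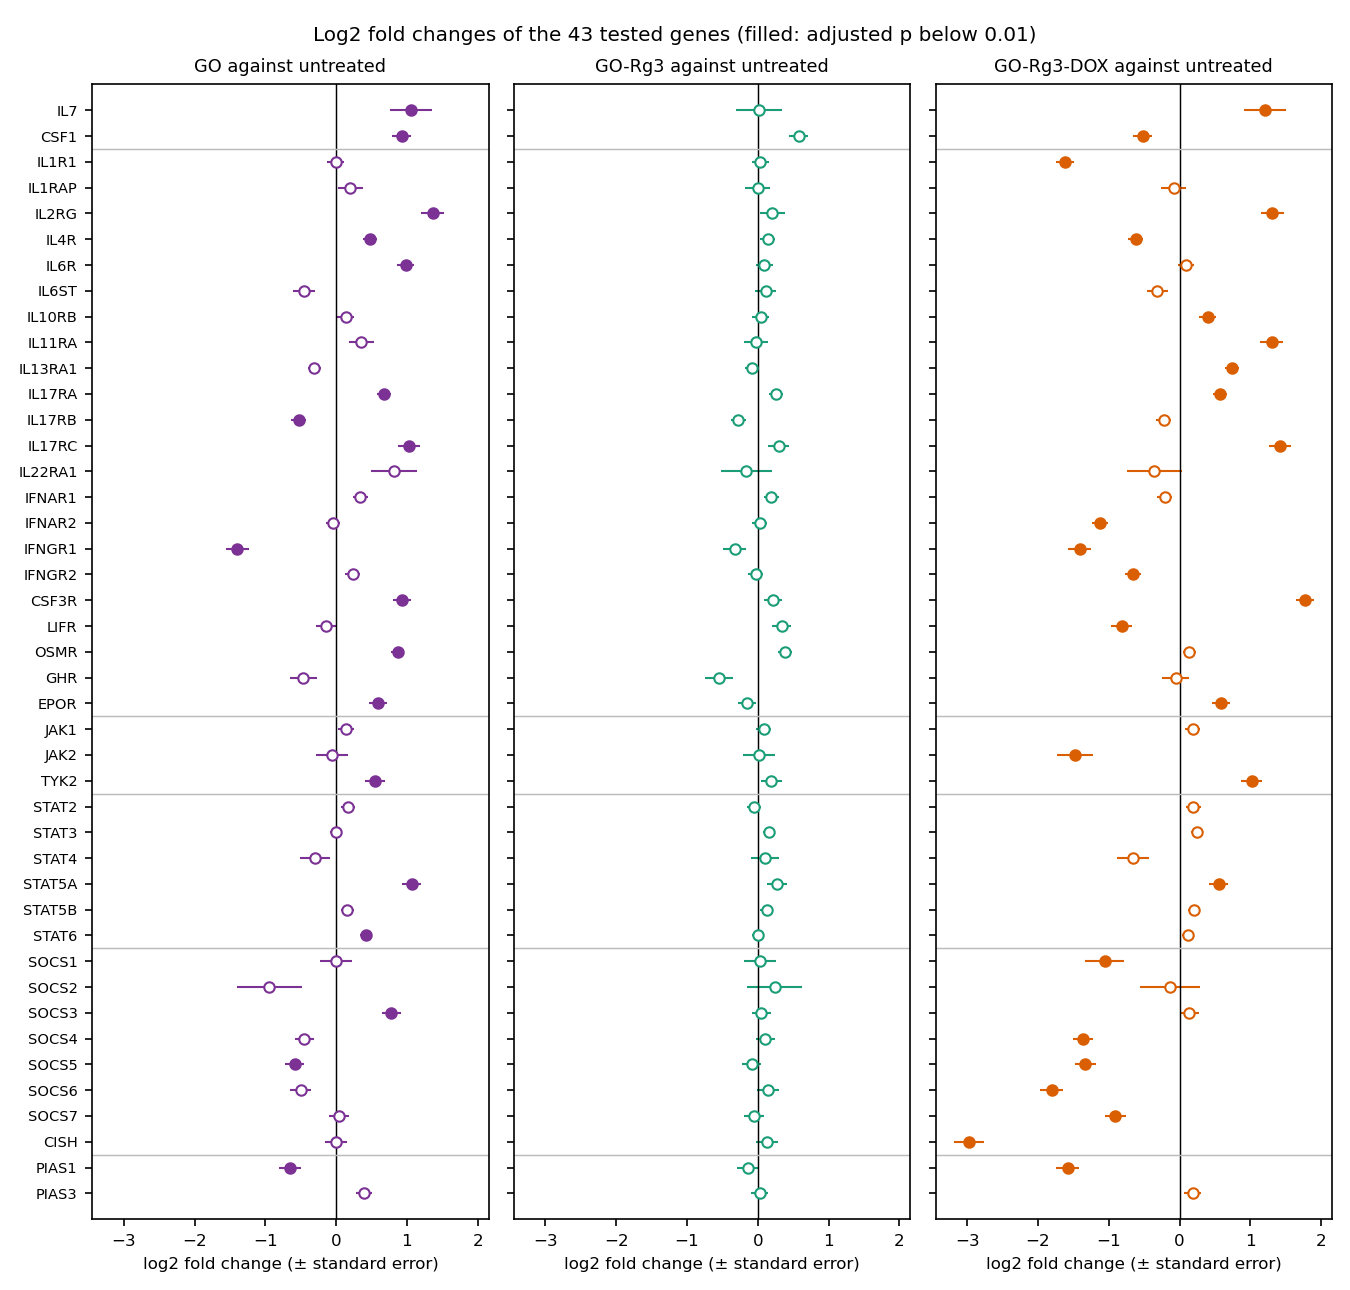
Log2 fold change of the 43 tested genes against untreated cells, in order of role (ligands, receptors, kinases, STAT, SOCS, PIAS); bars are standard errors and filled points have an adjusted p below 0.01 (edgeR). In GO-Rg3-DOX cells 6 of the 8 SOCS genes are filled and to the left of 0, and no point is filled in GO-Rg3 cells; the GO-Rg3-DOX dose was 100 µg/mL and the others 400 µg/mL.

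With library totals the median of all genes in GO-Rg3-DOX against untreated cells was -0.47, and the split of the 43 genes was 5 higher and 19 lower. Of the genes that rose with TMM scaling, IL7, IL10RB, IL13RA1, IL17RA, EPOR and STAT5A no longer passed (adjusted p 0.030 to 0.91). Without GO-Rg3-DOX replicate 1 it was 10 and 13. GC content moved with the log2 fold change here too (Spearman coefficient across genes 0.38 over 16310 genes and 0.47 over the 42), and the genes that rose had a median GC content of 56.7%, against 42.3% for those that fell. With the GC offset 14 genes rose and 14 fell, and 4 and 5 did so by more than 1 on the log2 scale, while LIFR, EPOR and STAT5A missed the test (adjusted p 0.012 to 0.059). The genes that passed with the offset but not without it, named after their values were seen, were IL1RAP (log2 fold change 0.49), OSMR (0.40), JAK1 (0.40), STAT3 (0.32) and IL6ST, which turned from -0.31 to 0.35 (adjusted p = 0.0039) but was lower with library totals (-0.73, adjusted p = 0.0037). TYK2 went from 1.02 to 0.56, IL17RC from 1.42 to 0.85, CSF3R from 1.78 to 1.37, IL11RA from 1.30 to 0.90 and IFNGR1 from -1.41 to -0.89, while IL13RA1 went from 0.74 to 1.12 and CSF1 from -0.52 to -0.88. SOCS4, SOCS5, SOCS6 and JAK2, whose transcripts had 35.4, 37.6, 37.02 and 36.7% GC, then had log2 fold changes of -0.66, -0.73, -1.18 and -0.83. CISH and SOCS1, at 58.6 and 66.2% GC, had log2 fold changes of -3.31 and -1.72. The part of base composition in these changes was not tested beyond this offset.

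**Figure D4:**
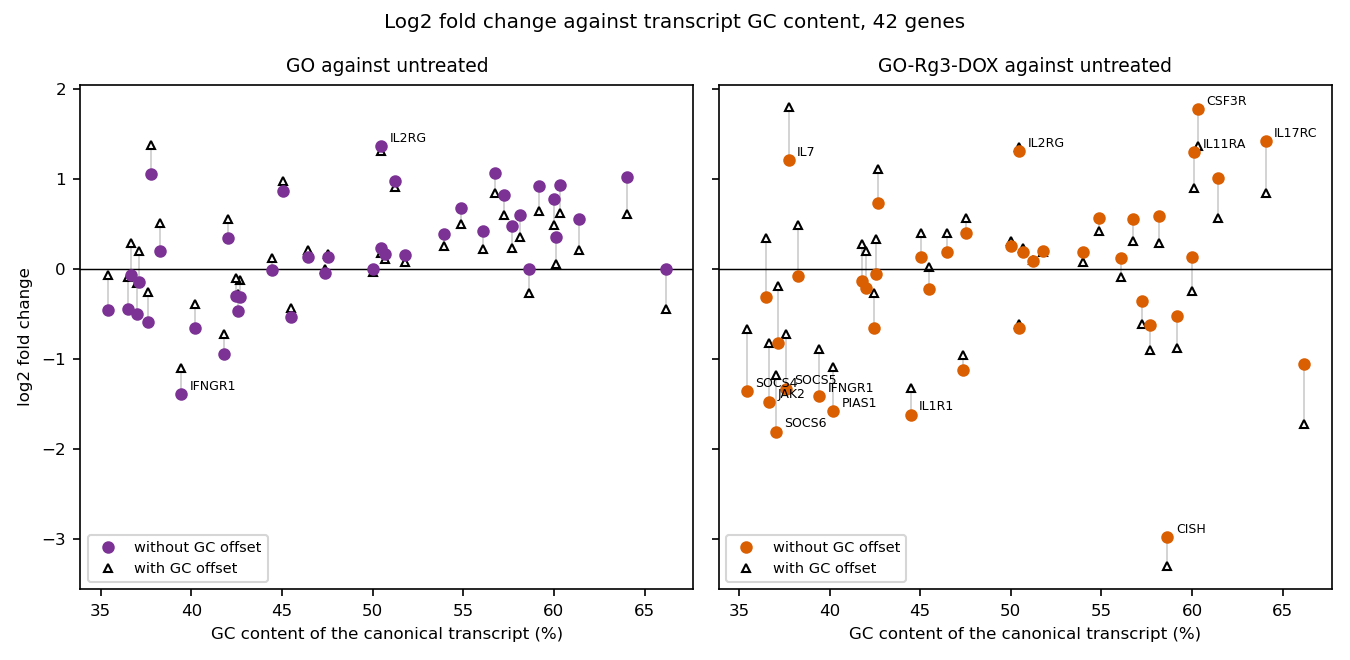
Log2 fold change of 42 genes against the GC content of the canonical transcript (percent), for GO and GO-Rg3-DOX against untreated cells; filled circles are fitted without and open triangles with the GC offset, joined by a line for each gene. The offset raises the genes of low GC content and lowers those of high GC content, and CISH is the lowest gene in the GO-Rg3-DOX panel with and without it.

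Around these genes, lists of other pathway members were counted in the same fits. The lists were chosen with earlier results of these data known, so they give no independent support. Their counts stand beside the shares of all genes tested given above: 12.1% higher and 15.4% lower with GO, 25.5% and 30.5% with GO-Rg3-DOX, and 7.33% and 6.25% in GO-Rg3 against GO, with all-gene medians of 0.01, -0.06 and -0.02. Of 27 further cytokine ligands 13 could be tested, and 3 rose and 1 fell in GO cells. LIF, which signals through LIFR and gp130, went from 19.2 ± 0.842 to 110 ± 9.20 CPM (log2 fold change 2.52 ± 0.14, adjusted p = 2.0e-08) and EPO, the ligand of EPOR, from 1.31 ± 0.238 to 3.78 ± 0.123 CPM (1.54 ± 0.22). Against GO, 2 of the 13 were lower in GO-Rg3 cells: LIF at 26.7 ± 5.21 CPM (-2.05 ± 0.14) and EPO at 1.33 ± 0.399 CPM (adjusted p = 2.8e-04). In GO-Rg3-DOX cells 4 rose and 2 fell, and 4 and 4 with library totals or with the GC offset. THPO, the thrombopoietin gene of the liver, fell from 18.4 ± 0.621 to 6.06 ± 1.18 CPM (-1.61 ± 0.15), and CTF1, which encodes cardiotrophin 1, rose from 0.579 ± 0.0980 to 1.78 ± 0.525 CPM (1.62 ± 0.28). Of 34 further receptor genes 16 could be tested: 2 rose with GO, and 7 rose and 3 fell with GO-Rg3-DOX. With library totals these counts were 0, and 5 and 4, and with the GC offset 1, and 8 and 1. Of the genes that rose with GO, IL27RA (log2 fold change 0.52 ± 0.13, adjusted p = 0.0050) kept the call in 1 of 6 fits lacking a single sample. In GO-Rg3-DOX cells IFNLR1, the interferon lambda receptor chain that pairs with IL10RB, fell from 9.58 ± 0.875 to 3.58 ± 0.139 CPM (-1.42 ± 0.14) and IL27RA rose from 7.54 ± 0.548 to 14.99 ± 0.431 CPM (0.99 ± 0.13).

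Among 19 other regulators of JAK-STAT signalling, 4 rose and 3 fell with GO, and 2 rose and 11 fell with GO-Rg3-DOX, with medians of 0.07 and -0.62; with library totals 3 and 2, and 0 and 11. PTPN2, a phosphatase of JAK1 and STAT proteins, fell in GO cells from 78.5 ± 1.93 to 48.2 ± 1.55 CPM (log2 fold change -0.70 ± 0.11). PIK3R1, a regulatory subunit of PI3 kinase, went from 41.8 ± 1.99 CPM up to 69.5 ± 8.91 CPM with GO (0.74 ± 0.11) and down to 11.8 ± 0.730 CPM with GO-Rg3-DOX (-1.82 ± 0.12). Of 14 adaptors of IL-1 and IL-17 receptors, 1 rose and 2 fell with GO, and 1 rose and 8 fell with GO-Rg3-DOX, with medians of -0.01 and -0.77; library totals gave 0 and 2, and 1 and 9. Those that fell included TRAF3IP2, the adaptor bound by IL-17 receptors (7.08 ± 0.279 to 1.32 ± 0.193 CPM, -2.42 ± 0.16), and TRAF6 (8.85 ± 0.805 to 2.34 ± 0.522 CPM, -1.92 ± 0.19). NFKBIZ, an IL-1 and IL-17 response gene, fell from 150 ± 9.06 to 35.02 ± 6.73 CPM (-2.09 ± 0.19).

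Target genes further downstream were counted too, from lists chosen in the same way. Of 21 STAT3 targets 7 rose and 1 fell with GO, and 13 rose and 5 fell with GO-Rg3-DOX (medians 0.34 and 0.87); library totals gave 5 and 1, and 11 and 6, and the GC offset 9 and 2, and 12 and 6. SERPINA3, an acute phase protease inhibitor, went from 0.480 ± 0.103 CPM to 3.44 ± 0.196 CPM with GO (log2 fold change 2.84 ± 0.20, adjusted p = 2.0e-07) and to 2.003 ± 0.281 CPM with GO-Rg3-DOX (2.06 ± 0.22). SAA1, an acute phase apolipoprotein, rose with GO from 3.98 ± 0.574 to 8.78 ± 3.12 CPM (1.14 ± 0.22). Other genes of the list fell with GO-Rg3-DOX, among them CEBPD (20.4 ± 0.266 to 5.05 ± 0.663 CPM, -2.01 ± 0.16) and the kinase PIM1 (17.8 ± 1.14 to 6.02 ± 0.831 CPM, -1.56 ± 0.12).

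Of 32 interferon targets 23 could be tested, and 7 rose and 2 fell with GO, while 10 rose and 5 fell with GO-Rg3-DOX; with library totals these were 4 and 3, and 7 and 7. The medians were 0.51 and 0.65, and 0.38 and 0.23 with library totals. GBP2, a guanylate-binding protein, rose with GO from 11.7 ± 0.393 to 28.3 ± 3.81 CPM (log2 fold change 1.28 ± 0.11). With GO-Rg3-DOX IFI27 rose from 0.974 ± 0.231 to 9.36 ± 2.01 CPM (3.26 ± 0.22), and the regulator IRF2 fell from 11.2 ± 0.155 to 1.77 ± 0.251 CPM (-2.67 ± 0.15). Of 6 targets of growth hormone and STAT5 outside the SOCS family, 4 could be tested. With GO 2 rose and 1 fell, but 1 and 2 with library totals, and 2 and 2 with the GC offset. With GO-Rg3-DOX 3 rose and 1 fell, 2 and 1 with library totals, and the gene that fell was BCL2L1, an inhibitor of apoptosis (546 ± 18.2 to 253 ± 4.93 CPM, -1.11 ± 0.10). IGFBP3, which binds insulin-like growth factors, rose from 15.9 ± 0.973 to 32.6 ± 1.66 CPM (1.04 ± 0.10). In GO-Rg3 against GO 0 of the further receptors were higher and 1 lower, 0 and 3 of the regulators, and 2 and 0 of the adaptors. Of the STAT3 targets 0 were higher and 6 lower, of the interferon targets 1 and 5, and of the growth hormone and STAT5 targets 1 and 1. In the same order, library totals gave 0 and 0, 1 and 0, 1 and 0, 0 and 3, 1 and 4, and 2 and 0. In GO-Rg3 against untreated cells 0 of the 110 tested genes of these 7 lists passed in edgeR, 16 had an unadjusted p under 0.05, and DESeq2 called 1 higher and 1 lower.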

How the data were processed

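RNA from 12 Huh7 samples was analysed. The authors mapped reads to GRCh37 with the NGI-RNAseq pipeline and counted them per gene with featureCounts (build and counter per the labels), and deposited raw counts without normalization. The annotation release and strand setting are not given in the sources used here, so genes with overlapping exons are uncertain.

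Groups followed the labels. Genes reaching 10 counts in 3 or more samples (17092) were fitted over all samples with edgeR 4.0.16 (TMM scaling, quasi-likelihood test, R 4.3.3) and adjusted by Benjamini-Hochberg. A gene passed at an adjusted p below 0.01; genes that also changed by more than 1 on the log2 scale, which is the study's full threshold, were counted separately. On simulated counts for GO against untreated (16714 genes, 200 changed by 1.5 on the log2 scale) 198 were recovered, with 0 false calls. The changed genes were drawn from well-counted genes only, the spread was assumed, and no GC trend or outlying sample was built in. The recovery therefore gives no error rate for these data or for scarce genes. Members passing the test were named, up to 25 per comparison by size, and up to 3 genes per list averaging 1 CPM. Members and lists were chosen with earlier results of these data known.

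Positions, lengths and GC content came from GENCODE v44 lifted to GRCh37, which may differ from the authors' annotation; 16310 tested genes (95.4%) had a GC value. SOCS7 had no entry under its identifier. Promoters came from RefSeq (GRCh38.p14). Alternatives were RLE scaling, library totals, other count filters, the replicate number as a block, a GC offset, the compared samples alone, leaving out each sample, and DESeq2 1.42.0. Totals of 27802871 to 38877420 counts per sample leave counting error largest for scarce genes such as IL7, SOCS1 and SOCS2.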

Additional observations from a re-analysis of the deposited data

How the results depend on the processing

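Of 914 values for 61 named gene comparisons under alternatives, 794 kept their side of the threshold, 110 lost and 9 gained the test, and 1 reversed: IL10RB in GO-Rg3-DOX against untreated cells, at -0.0186 with library totals. Most of the 61 were named because they passed, so few of them could gain the test. Over all 43 genes and every comparison, DESeq2 added 13 calls. The GC offset added 11 and removed 11, and library totals added 4 and removed 19. Counts of genes with an adjusted p below 0.01, and of those that also changed by more than 1 on the log2 scale, moved by over 1.5 times as follows. With library totals, GO gave 9 higher, 1 of them by more than 1. GO-Rg3-DOX gave 5 higher, 2 of them by more than 1, and GO-Rg3 against GO gave 1 higher and 4 lower. With no count filter, 7 fell with GO, 1 rose with GO-Rg3, and in GO-Rg3 against GO 7 were higher and 2 lower by more than 1. DESeq2 gave 7 lower with GO, 2 higher with GO-Rg3, and 7 higher in GO-Rg3 against GO; an adjusted p of 0.05 gave 8, 1 and 7, and 2 lower by more than 1 in the last. The 6 compared samples alone gave 1 higher and 2 lower in GO-Rg3 against GO. The GC offset, alone or with the replicate block, gave with GO 2 higher by more than 1, with GO-Rg3 2 higher, with GO-Rg3-DOX 5 lower by more than 1, and in GO-Rg3 against GO 0 higher and 2 lower by more than 1. Leaving out single samples gave 2 to 7 lower and 1 to 2 lower by more than 1 with GO, 0 to 1 higher with GO-Rg3, and in GO-Rg3 against GO 1 to 5 higher, 6 to 13 lower, 0 to 1 higher and 1 to 2 lower by more than 1. The cause of these moves was not tested.

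Samples share a replicate number but nothing states a shared origin. Deviations of same-numbered samples had a mean correlation of 0.0914 over 18 pairs (range -0.0239 to 0.253), and 10 of 12 samples correlated best with their own number. The replicate block gave 7 lower with GO, and in GO-Rg3 against GO 7 higher and 2 lower by more than 1, and changed the call of 0 of the 61 named comparisons. Among all 43 genes it added 9 calls and removed 0: PIAS3, SOCS4, SOCS6 and IL6ST (adjusted p = 0.0098) with GO, and PIAS1, SOCS5, LIFR, IL6ST and IL7 in GO-Rg3 against GO. Depth limits IL7, SOCS1, SOCS2 and CISH, which had as few as 14, 13, 3 and 9 counts in a sample.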
